A study of Mus musculus with 16 samples.

Results

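*Ldah*, the gene of the lipid droplet-associated hydrolase LDAH, is described here together with 6 other genes of cholesterol esterification and neutral cholesterol ester hydrolysis: *Nceh1*, *Lipe*, *Soat1*, *Soat2*, *Ces1d* and *Aadac*. The 7 genes were taken by symbol from the 48432 genes of a table of RNA-seq means, and all 7 were found, with 1 entry each. The RNA came from mouse peritoneal macrophages (PM) harvested 5 days after 3% thioglycolate, an irritant that draws monocyte-derived cells into the peritoneal cavity, and treated with oxidised LDL (oxLDL, 50 μg/ml) for 48 h. There were 4 groups of 4 samples, 16 in all: LDAH-Tg PM, labelled LDAH overexpression, with their controls, labelled LDAH ApoE control, and LDAH-KO PM, labelled LDAH KO, with their own controls, labelled LDAH WT. All 16 carry the strain label C57BL/6J, and no age is given. In the paper, the LDAH-Tg line began in B6D2F1 background and its founders were crossed 7 times with C57BL/6. The KO line was made directly in C57BL/6. The transgene is hemizygous and is driven by the *Csf1r* promoter with its FIRE enhancer, which direct expression to macrophages and granulocytes. The KO allele is present in all cells and has a cassette in place of exons 2, 3 and a stretch of exon 4. Whether the mice of the RNA-seq lacked *Apoe* is not given in the sources used here. *Apoe* itself ranged from 7947 to 10404 transcripts per 1000000 (TPM) over the 4 groups.

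Macrophages that take up oxLDL free its cholesterol in the lysosome, and the acyltransferases SOAT1 and SOAT2 (also called ACAT1 and ACAT2) in the endoplasmic reticulum esterify the excess, which is stored in lipid droplets. Neutral hydrolases cleave these stored esters again, which lets the sterol leave the cell, so that the stores turn over in a cycle. NCEH1 and hormone-sensitive lipase (*Lipe*) are the hydrolases most often studied in macrophages, LDAH sits on lipid droplets and has a lipase motif, and the carboxylesterase CES1D and the deacetylase AADAC are mainly liver enzymes that also cleave neutral lipid esters.

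Each value below is the authors' mean TPM of a group, a level scaled to transcript length. No value of a single sample was in the table, so no SD, p-value or replicate check can be given, and the depth is unknown. Differences are sizes: log2 ratios of 2 means after adding 0.5 TPM to each, for genes with a mean of at least 1 TPM over the 2 groups and neither at 0. A factor of 1.5 served as a mark of size.

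*Ldah* (ENSMUSG00000037669.14) lies on the plus strand of chromosome 12 of GRCm38, chr12:8208107-8285759. Its mean was 28.5 TPM in the controls of LDAH-Tg and 4.36 times as high, 124 TPM, in LDAH-Tg PM (log2 ratio 2.10). In the WT controls of LDAH-KO it was 44.5 TPM, and LDAH-KO PM held 62.6% of this level, 27.9 TPM (log2 ratio -0.67). The targeted gene was thus highest in the group labelled overexpression and lowest in the group labelled KO, but the KO level was close to that of the controls of LDAH-Tg, which come from the other line. By level, *Ldah* moved from place 4131 to place 1223 among the genes of the table with the transgene, and stood at place 3408 in WT and 4520 in LDAH-KO PM.

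A gene-level mean adds up all exons. In the main coding transcript, Ldah-201 of GENCODE, 7 exons make 2737 bases, of which 978 are coding. Exons 2 to 4 hold 473 bases, 17.3% of the transcript, and 82.7% of it lies outside them, most of it in exon 7 with 1860 bases. By PCR and western blotting the paper reports a complete knockout in homozygotes, so the RNA level in LDAH-KO PM is not a measure of LDAH protein. Levels per exon were not in the table, so how much of the 27.9 TPM came from RNA that lacks the replaced exons was not tested. For the same reason, which exons the transgene adds to the 124 TPM of LDAH-Tg PM was not tested. The study's quantitative PCR primers are shown here because their place decides which RNA they can read:
Ldah forward: ctggtgtctgcacaaggatg
Ldah reverse: gattcccaccagtgaccaag
Both match exon 7, the forward primer at chr12:8285465-8285484 on the plus strand and the reverse primer against chr12:8285549-8285568, with 104 bases from end to end. The forward primer begins 1376 bases after the last coding base, in the 3′ untranslated part and outside the replaced exons. Of the 14 annotated *Ldah* transcripts, 2 hold both primers.

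**Figure D1:**
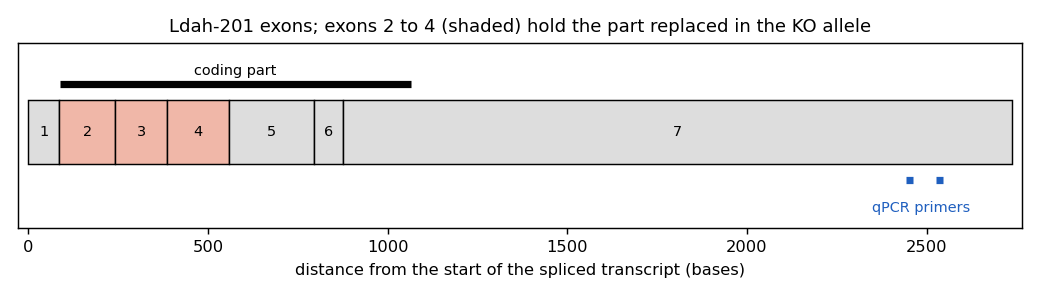
Exons of the spliced transcript Ldah-201, drawn to scale by distance in bases from its start, with the coding part as a black bar and the quantitative PCR primers as blue marks. Exons 2 to 4 are shaded; exon 4 is replaced in part only, and both primers lie in exon 7.

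The primers for the other hydrolases show the same placement in a last exon:
Nceh1 forward: tcacgttcgtctgtgaggac
Nceh1 reverse: ctttgcagtggggaattggc
Lipe forward: ctgcaccactgaactgagct
Lipe reverse: tctcggagcgcactcataac
The *Nceh1* pair matches exon 5 of 5 on the plus strand, chr3:27244727-27244746 and chr3:27244812-27244831, in 1 of 5 annotated transcripts, and spans 105 bases. The *Lipe* pair matches exon 10 of 10 of Lipe-204 on the minus strand, chr7:25379958-25379977 and chr7:25379882-25379901, in 4 of 8 annotated transcripts, and spans 96 bases. Each pair lies within 1 exon.

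*Nceh1* (ENSMUSG00000027698.14, plus strand, chr3:27182965-27284608) encodes neutral cholesterol ester hydrolase 1, an enzyme of the endoplasmic reticulum membrane. It was the most abundant of the hydrolases in 3 of the 4 groups. LDAH-Tg PM had a mean of 100.5 TPM where their controls had 124 TPM (log2 ratio -0.30). LDAH-KO PM had 253 TPM where WT had 276 TPM (log2 ratio -0.12). Neither ratio reached a factor of 1.5, and both were below 0.

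*Lipe* (ENSMUSG00000003123.15, minus strand, chr7:25379527-25398710) encodes hormone-sensitive lipase, which also cleaves diacylglycerols and retinyl esters. It was low throughout, at 7.05 TPM in the controls of LDAH-Tg, 7.71 TPM in LDAH-Tg PM, 6.00 TPM in LDAH-KO PM and 5.99 TPM in WT. These means lay closer together than those of any other member above 1 TPM in every group, with log2 ratios of 0.12 and 0.003. The authors' table gives *Lipe* 1 locus together with 7 other genes, of which *Ceacam1* was above 1 TPM (27.6, 20.9, 12.3 and 9.44 TPM in WT, LDAH-KO, the controls of LDAH-Tg and LDAH-Tg), and how reads shared between overlapping genes were counted is not given in the sources used here. Adipocytes hold much more *Lipe* than macrophages do, and 6 adipocyte markers, *Adipoq* and *Plin1* among them, summed to between 0.0193 and 0.10 TPM over the groups. Between 3 and 5 of these 6 were listed at 0 per group, and a listed 0 does not show that a transcript was missing. Whether adipocytes added to *Lipe* was not tested.

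*Soat1* (ENSMUSG00000026600.12, minus strand, chr1:156424525-156474331) encodes the acyltransferase of macrophages. It was the most abundant member in every group. LDAH-Tg PM held 75.4% of the level of their controls, with means of 180.5 and 239 TPM (log2 ratio -0.41). LDAH-KO PM held 83.3% of the WT level, with means of 589.6 and 708 TPM (log2 ratio -0.26). *Soat1* was thus lower than in the own controls with both genotypes, by less than a factor of 1.5 each time.

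*Soat2* (ENSMUSG00000023045.12, plus strand, chr15:102150526-102163469) encodes the acyltransferase of hepatocytes and intestinal cells. It was near the limit of the table, at 1.38 TPM in the controls of LDAH-Tg, 1.64 TPM in LDAH-Tg PM, 0.657 TPM in LDAH-KO PM and 0.615 TPM in WT. The log2 ratio was 0.19 for LDAH-Tg, and WT and LDAH-KO were under the minimum of 1 TPM. *Soat1* exceeded *Soat2* by between 110.3 times in LDAH-Tg PM and 1151 times in WT.

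*Ces1d* (ENSMUSG00000056973.6, minus strand, chr8:93166068-93197838) was listed at 0 in 3 groups and at 0.00641 TPM in LDAH-KO PM, and *Aadac* (ENSMUSG00000027761.4, plus strand, chr3:60025717-60040160) at 0 in all 4. Some abundant macrophage genes are also listed at 0 in this table, such as *Lyz2* in every group but LDAH-Tg, where it was 10105 TPM, so a listed 0 does not show that a transcript was missing. The relatives of *Ces1d* were also low. Of 20 other carboxylesterase genes, all were below 1 TPM in each group and 16 were listed at 0 throughout. Hepatocyte and gut markers (*Alb*, *Apoa1* and 4 others) summed to at most 0.185 TPM.

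**Figure D2:**
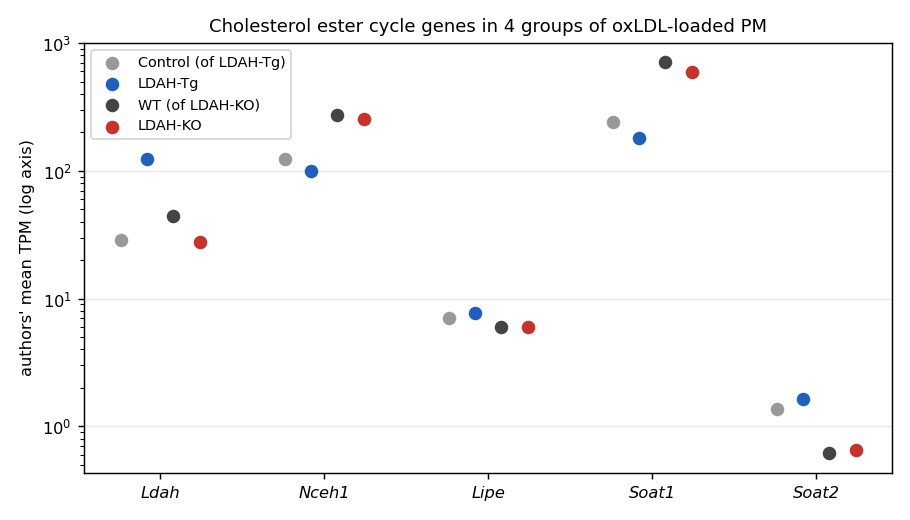
Authors' mean TPM (log axis) of the 5 genes that reached 1 TPM in at least 1 group, 1 point per group mean with no error bar since no replicate values were in the table. *Ldah* is highest in LDAH-Tg PM (124 TPM), and *Nceh1* and *Soat1* differ more between the control groups, 124 against 276 TPM and 239 against 708 TPM, than between either genotype and its controls.

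Set among all genes, the member with a ratio past 1.5 was *Ldah* in both comparisons. For LDAH-Tg, 1 of the 5 members that could be compared was past the factor, and it was higher. Of all 11395 genes compared, 1.95% were past it in either direction 1.26% were higher and 0.685% lower. *Ldah*, the gene the transgene carries, had the second highest ratio of them. *Soat1* stood low, with 2.52% of genes at its ratio or below, and *Nceh1* had 6.11% at or below. Among the 1325 genes with a mean from 100 to 1000 TPM, the shares were 2.19% and 5.96%. The median of all genes was 0.002, with 49.5% of genes below 0.

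For LDAH-KO, 1 of the 4 members compared, *Ldah*, was past the factor, and it was lower. Its ratio was -0.59 after median-ratio scaling, and quantile normalization put it at -0.58, short of the factor, with 0 members past it. Of all 11289 genes, 2.22% were past it in either direction, 1.83% lower and 0.39% higher. *Ldah* ranked 151 from the lowest, with 1.34% of genes at or below it, so its ratio was not the lowest of the table even though it was the gene targeted. *Soat1* had 15.5% of all genes at or below it, and 5.10% of the 1510 genes at 100 to 1000 TPM. *Nceh1* had 39.9% of all genes at or below it and 19.7% of those at 100 to 1000 TPM. The median of all genes was -0.08, with 66.6% of genes below 0, and the ratios of *Nceh1* and *Lipe* differed from that median by less than 0.1.

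**Figure D3:**
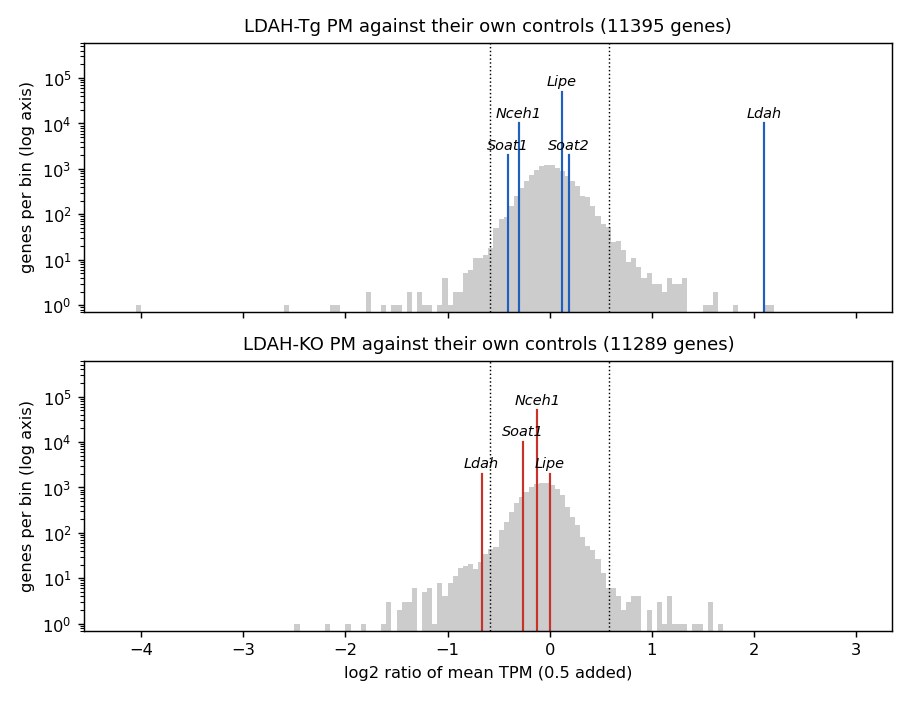
Histograms of the log2 ratios of all compared genes in 0.05-wide bins (grey, log axis), with the ratios of the compared members as lines of arbitrary height; dotted lines mark a factor of 1.5. *Ldah* stands at 2.10 with LDAH-Tg and at -0.67 with LDAH-KO, while the others lie between the dotted lines.

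In bulk RNA, fewer cells of a type and less RNA per cell cannot be told apart. With LDAH-Tg, the macrophage marker *Adgre1* (F4/80) was 22.4 TPM against 33.1 TPM in the controls and *Itgam* 110 against 144 TPM, log2 ratios of -0.55 and -0.39, while *Csf1r* was 94.6 against 100.5 TPM and *Cd68* 4895 against 4959 TPM. *Adgre1* and *Itgam* were thus lower along with *Soat1* and *Nceh1*, and their part in those ratios was not tested. With LDAH-KO, 7 fibroblast and mesothelial markers summed to 18.6 TPM against 36.3 TPM in WT, with *Dcn* at 11.6 against 19.8 TPM and no marker at 0. Among the macrophage markers *Itgam* was 217 against 273 TPM, *Mertk* 50.7 against 59.3 TPM and *Csf1r* 94.2 against 108 TPM, log2 ratios of -0.33, -0.23 and -0.20, and *Adgre1* 147 against 146 TPM. The part of these markers in the lower *Soat1* and *Ldah* was not tested. In the LDAH-Tg comparison the same 7 markers summed to 27.5 and 27.6 TPM, but they moved in both directions. *Dcn* was 10.8 TPM against 12.8 TPM in the controls, *Col1a2* 8.16 against 6.94 TPM and *Krt19* 1.67 against 1.21 TPM. With LDAH-KO, *Col1a2* was 2.40 TPM against 6.34 TPM in WT. The paper's quantitative PCR of PM found *Col1a2* raised by the transgene and reduced by the knockout. Which cells its RNA came from was not tested here. B cell markers summed to between 0.999 and 1.47 TPM, T cell markers to between 1.26 and 2.72 TPM, and granulocyte and mast cell markers to between 64.0 and 107.7 TPM, nearly all of it *S100a8*.

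The make-up of the hydrolase transcripts differed most with the transgene. The summed TPM of *Ldah*, *Nceh1* and *Lipe* was 159.5 in the controls of LDAH-Tg and 232 in LDAH-Tg PM. *Ldah* made up 17.9% of that sum in the controls and 53.5% in LDAH-Tg PM, and *Nceh1* 77.7% and 43.2%. In LDAH-Tg PM *Nceh1* was at 0.809 times the level of *Ldah*, against 4.35 times in the controls. With LDAH-KO the sum was 287 TPM against 326 TPM in WT, the share of *Ldah* was 9.70% against 13.6%, and *Nceh1* was at 9.09 times *Ldah* against 6.20 times. *Lipe* stayed between 1.84% and 4.42% of the sum in the 4 groups. A sum of transcripts is not a measure of enzyme activity.

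Set against this sum, *Soat1* was 1.5 times the hydrolases in the controls of LDAH-Tg and 0.777 times in LDAH-Tg PM. In WT it was 2.17 times and in LDAH-KO PM 2.05 times. *Ldah* itself is part of the sum. *Soat1* to *Nceh1* alone, which leaves *Ldah* out, was 1.93 in the controls and 1.80 in LDAH-Tg PM, and 2.57 in WT and 2.33 in LDAH-KO PM.

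**Figure D4:**
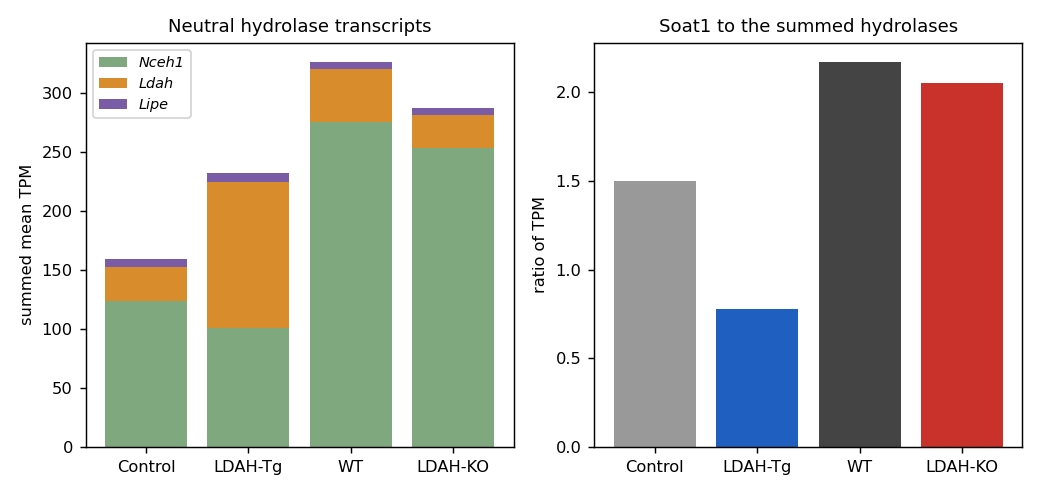
Left, authors' mean TPM of *Nceh1*, *Ldah* and *Lipe* stacked for each group; right, *Soat1* TPM divided by that sum, a ratio without unit, both on axes from 0 and with no error bars since only group means exist. *Ldah* is 53.5% of the sum in LDAH-Tg PM and between 9.70% and 17.9% in the other groups, and the ratio at right is lowest (0.777) in LDAH-Tg PM.

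The 2 control groups differed from each other in the levels of the members. For *Soat1* and *Nceh1* the difference was larger than that of either genotype from its controls, and for *Ldah* it was smaller than both. WT had 2.96 times the *Soat1* of the controls of LDAH-Tg, 2.22 times the *Nceh1* and 1.56 times the *Ldah*, log2 ratios of 1.56, 1.15 and 0.63. Past a factor of 1.5, 3 of the 4 members compared were higher in WT, and so were 26.5% of all 11404 genes compared (38.6% in either direction). By rank, *Soat1* had 2.28% of genes at or above its ratio, *Nceh1* 6.80% and *Ldah* 24.0%. *Lipe* went the other way by less than the factor, with a log2 ratio of -0.22. *Adgre1* was 146 TPM in WT and 33.1 TPM in the controls of LDAH-Tg. Mouse line, genetic background and any difference in handling cannot be told apart here, so ratios are taken to the own controls, and an order of levels over the 4 groups is a description that also holds these differences.

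The start regions of *Ldah*, *Nceh1* and *Soat1*, the most abundant members, are shown since their levels set most of the sums above. They are RefSeq windows of GRCm38.p6 that begin 250 bases before the annotated start, ended here 30 bases past the GENCODE start. Capitals mark a cAMP response element, TGACGTCA, in *Ldah* and an E-box, CACGTG, in *Nceh1*. *Ldah* is chr12:8207876-8208136 on the plus strand, *Nceh1* chr3:27182754-27182994 on the plus strand and *Soat1* chr1:156474302-156474578 on the minus strand.
Ldah: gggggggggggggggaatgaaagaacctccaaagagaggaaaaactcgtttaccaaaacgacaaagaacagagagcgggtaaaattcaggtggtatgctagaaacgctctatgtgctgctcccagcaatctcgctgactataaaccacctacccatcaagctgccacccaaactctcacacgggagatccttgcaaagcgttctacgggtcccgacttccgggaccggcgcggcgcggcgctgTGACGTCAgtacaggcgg
Nceh1: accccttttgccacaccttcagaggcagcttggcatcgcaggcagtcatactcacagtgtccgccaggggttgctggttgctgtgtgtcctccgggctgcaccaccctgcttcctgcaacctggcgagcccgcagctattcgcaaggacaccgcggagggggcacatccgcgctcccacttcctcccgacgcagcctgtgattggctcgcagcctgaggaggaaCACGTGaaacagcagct
Soat1: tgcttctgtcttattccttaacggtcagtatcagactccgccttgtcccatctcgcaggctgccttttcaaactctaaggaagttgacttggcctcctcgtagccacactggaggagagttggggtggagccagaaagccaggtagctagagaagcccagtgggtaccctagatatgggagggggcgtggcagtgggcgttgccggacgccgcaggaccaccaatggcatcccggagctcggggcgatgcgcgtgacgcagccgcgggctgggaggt

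Promoter windows were found for 5 of the 7 members, with 2 each for *Ldah* and *Lipe* and none for *Soat2* and *Ces1d*. The motifs TGACGTCA and CACGTG, each of which reads the same on both strands, were searched in the 300-base windows. The first begins 7 bases before the first RefSeq start of *Ldah* and 74 bases before the second, within exon 1 of Ldah-201 by GENCODE, and is held by 1.79% of all 32851 promoters. The E-box begins 26 bases before the RefSeq start of *Nceh1* and 155 bases before a RefSeq start of *Lipe*, and 7.15% of all promoters hold it. By GENCODE, both of these E-boxes lie inside the gene, past its annotated start. No window of *Soat1* or *Aadac* held either, and the matches do not overlap. A match is a description of the letters, not a bound site. The windows of *Ldah*, *Nceh1*, *Soat1* and *Lipe* had 57% to 63.3% G and C, against a median of 52.7% for all promoters. That of *Aadac* had 37.3%. By GENCODE, the windows of *Lipe* and *Aadac* lie wholly inside the gene, away from its annotated start. CG dinucleotides numbered 19 to 23 in the windows of *Ldah*, *Nceh1*, *Soat1* and the first of *Lipe*, 2 in the second of *Lipe* and 3 in *Aadac*, with a median of 7 over all promoters.

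The 5 genes on each side of *Ldah* on chromosome 12 were also read. On the left, *Apob*, which encodes apolipoprotein B, and 4 further genes were below 1 TPM in each group. On the right, *Gdf7* and *Slc7a15* were listed at 0. *Hs1bp3* had log2 ratios of 0.03 with LDAH-Tg and -0.10 with LDAH-KO, and *Rhob*, a small GTPase, of 0.10 and 0.02. *Pum2*, an RNA-binding translational repressor, had 53.3 and 53.5 TPM in the LDAH-Tg comparison and 76.3 TPM with LDAH-KO against 103 TPM in WT, which gives -0.44. No compared neighbour reached a factor of 1.5.

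Over the 4 group means, 11344 genes were ranked by the distance of their centred log2 levels to those of *Ldah*. These were the genes with a mean of at least 1 TPM over the 4 groups and no group at 0. The 5 nearest were *Trav14n-3* (distance 0.666), *Fam129c* (0.779), *Gm16238* (0.858), *BC002163* (0.952) and *Gm16565* (0.965), all between 0.273 and 5.20 TPM. The other members were farther off, *Soat2* at 1.45, *Lipe* at 1.55, *Nceh1* at 2.65 and *Soat1* at 2.99. *Fam129c* and *Gm16565* reached the minimum mean only through LDAH-Tg PM, at 2.97 and 3.38 TPM, so the filter itself favours such a profile. This likeness rests on 4 points, is led by the 1 high group, and is a description without a test.

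Genes that hand cholesterol to the cycle, or take it from there, were described from lists that share no member with it. Over all genes compared, 1.95% were past the factor with LDAH-Tg and 2.22% with LDAH-KO, and 49.5% and 66.6% were below 0, at medians of 0.002 and -0.08. For lists this short, 0 genes past the factor is near that background. For lysosomal ester hydrolysis and sterol exit, 0 of 6 genes were past the factor in either comparison. With LDAH-Tg all 6 were below 0, at a median of -0.26, among them the acid lipase gene *Lipa* (-0.51), *Scarb2* (-0.37), which encodes a membrane protein of lysosomes, and the sterol carrier gene *Npc2* (-0.27). With LDAH-KO 5 of 6 were below 0, at the median of all genes, -0.08, and *Npc1* was farthest at -0.33, 90.8 TPM against 114 TPM. *Lipa* was 6.31 times the summed neutral hydrolases in the controls of LDAH-Tg and 3.05 times in LDAH-Tg PM, and 5.86 and 6.25 times in WT and LDAH-KO PM. *Ldah* is part of that sum, at 17.9% in the controls of LDAH-Tg and 53.5% in LDAH-Tg PM. These ratios thus follow *Ldah* as well as *Lipa*, which alone was 1007 TPM in the controls of LDAH-Tg and 709 TPM in LDAH-Tg PM.

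Of 13 genes of sterol transfer between membranes, 11 were compared and 0 were past the factor, with medians of -0.06 and -0.11. *Gramd1a*, a carrier from the plasma membrane to the endoplasmic reticulum, was at 0.38 with LDAH-Tg, *Stard4* at -0.38 and *Scp2* at -0.35. Of 12 genes of fatty acid activation and acyl-CoA binding, which make the other substrate of SOAT1, 11 were compared and 0 were past the factor. With LDAH-Tg 10 of these 11 were below 0, beside 49.5% of all genes, at a median of -0.20, with the acyl-CoA synthetase gene *Acsl3* farthest at -0.34. With LDAH-KO 7 of 11 were below 0, near the 66.6% of all genes, at a median of -0.10.

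Of 11 other neutral lipid acyltransferases, 5 were compared and 0 were past the factor, with medians of -0.04 and -0.08. *Dgat1*, which makes triacylglycerol, was at 0.32 with LDAH-Tg, 49.8 TPM against 39.8 TPM, where *Soat1* was at -0.41. Of 20 genes named for an alpha/beta hydrolase domain, the fold that lipases such as LDAH share, 17 were compared for LDAH-Tg and 18 for LDAH-KO and 0 were past the factor, with medians of -0.02 and 0.04. *Abhd1* was farthest, at 0.55 with LDAH-KO and with only 2.44 TPM against 1.51 TPM. Of 4 genes listed beside *Aadac*, 3 were found and *Afmid* alone was compared, at 0.54 with LDAH-Tg and -0.12 with LDAH-KO.

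Of 10 enzymes of oxysterols and desmosterol, sterols that SOAT1 also esterifies, 5 were compared. With LDAH-Tg 0 were past the factor, at a median of 0.08, and the mitochondrial sterol hydroxylase gene *Cyp27a1* was farthest with 34.5 TPM against 27.0 TPM. With LDAH-KO the median was -0.09, and 1 was past the factor, *Sult2b1*, a sterol sulfotransferase, with 2.39 TPM against 4.24 TPM and a log2 ratio of -0.71. Over these lists and the other members, *Sult2b1* with LDAH-KO was the only gene besides *Ldah* past a factor of 1.5 in either genotype when 0.5 or 1 TPM was added. With 0.1 TPM or nothing added, *Abhd1* with LDAH-KO and *Afmid* with LDAH-Tg were past it too, at 1.61 and 1.54 times their controls with nothing added.

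**Figure D5:**
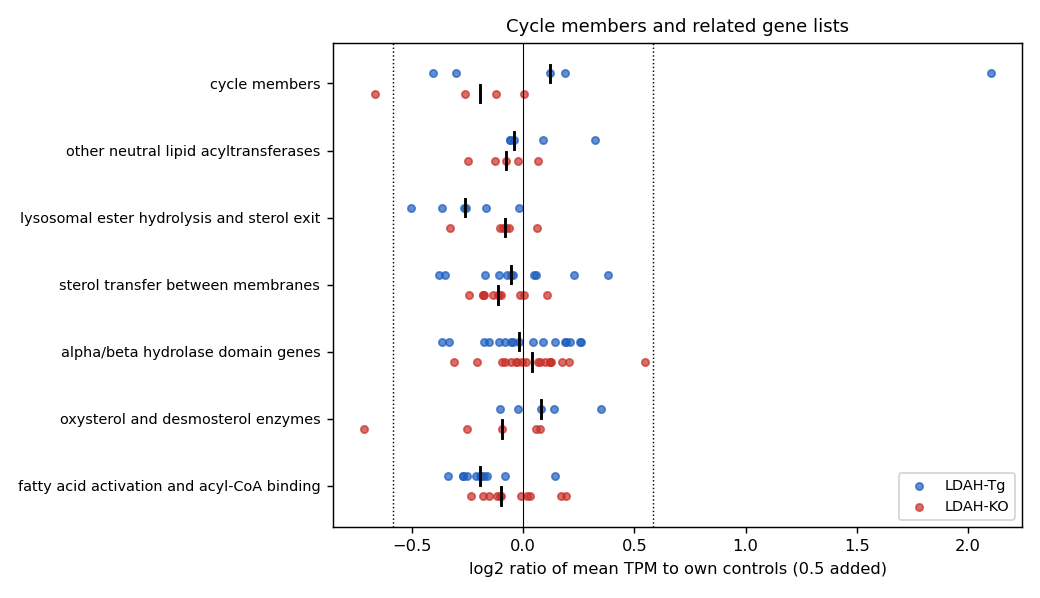
Log2 ratio to the own controls of each compared gene (points) of the cycle and of 6 related lists that held at least 3 compared genes, blue for LDAH-Tg and red for LDAH-KO, with black ticks at the medians and dotted lines at a factor of 1.5. Past the lines are *Ldah* in both comparisons and *Sult2b1* with LDAH-KO.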

How the data were processed

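RNA of 16 samples of oxLDL-treated PM, 4 per group, was sequenced by the authors from poly(A) libraries of a stranded kit. The authors' processing notes name Cuffdiff 2.2.1, DESeq2, HTSeq, Trimmomatic, bcl2fastq 2.17.1.14 and, as the aligner to mm10 (GRCm38), STAR 2.4.2a. The tool that made the TPM values, the annotation release and the use of strand in counting are not given in the sources used here. The values deposited by the authors are mean TPM per group in 4 columns. A line without a gene, which holds the column total, was left out. TPM are shares of a fixed total, so a gene listed at 0 in 1 group shifts the rest of that group.

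Log2 ratios of (TPM + 0.5) were taken for genes with a mean of at least 1 TPM over the 2 groups and neither at 0, and counted at a factor of 1.5. Limma was to be used had there been a column per sample, and no test was possible without. The ratio and count steps were run on simulated data with little noise and with planted changes larger than the factor. Such a run checks the code and says nothing about the real groups. Coordinates are from GENCODE M21 on GRCm38, which holds 99.2% of the gene identifiers, promoters from RefSeq on GRCm38.p6, and primers from the study. Named were all 7 members, up to 3 genes of each related list with the largest ratios in each comparison, the 5 genes most like *Ldah* and 5 neighbours on each side. *Ceacam1*, *Lyz2* and *Apoe* were named after their values were seen, and of the genes under the rule those with the largest ratios are given. The members and lists were chosen with earlier results of these data known. Pseudocounts of 0.1, 1 and none, no filter, a minimum of 5 TPM, median-ratio scaling, quantile normalization and a smaller factor and a factor of 2 were tried. Python 3.11.15 with numpy 2.4.6, pandas 2.3.3 and matplotlib 3.10.9 was used.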

Additional observations from a re-analysis of the deposited data

How the results depend on the processing

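The log2 ratio of *Ldah* ran from 2.09 to 2.12 with LDAH-Tg and from -0.68 to -0.58 with LDAH-KO over 7 alternatives each. Quantile normalization gave the value nearest 0 with LDAH-KO, -0.58, just inside a factor of 1.5 and with 0 members past it. A factor of 2 also left 0 members with LDAH-KO, and the factor below 1.5 that was tried gave 2 with LDAH-Tg, *Ldah* and *Soat1*. Quantile normalization set *Lipe* at 0.12 with LDAH-KO. No member that was compared changed direction under these settings. Median-ratio scaling took the share of all genes below 0 with LDAH-KO from 66.6% to 50.0%. Of all genes compared with LDAH-Tg, 222 were past a factor of 1.5, against 344 without a pseudocount, 388 without a filter, 96 at a minimum of 5 TPM, 1438 at the smaller factor and 49 at a factor of 2. With LDAH-KO the count was 251, against 460 without a filter, 75 at 5 TPM, 1338 at the smaller factor and 63 at 2. The fewer genes at 5 TPM follow in part from the fewer genes compared, 8921 and 8979.

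No paired analysis was possible because only the mean of each group was in the table. For the same reason no replicate was left out and no library was checked against the others of its group, and no statement here is set against the spread between mice.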
